A study of Mus musculus with 40 samples.

Results

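The hemisphere damaged by hypoxia-ischaemia was set against the opposite, uninjured one in postnatal day 9 C57/Bl6 mice that had received the synthetic immunomodulatory peptide IDR-1018 before lipopolysaccharide (LPS) and hypoxia-ischaemia (HI). The comparison uses 10 of the 40 arrays of the study, the 5 whose titles name the injured hemisphere with LPS, HI and IDR-1018 and the 5 whose titles name the uninjured one. In both groups the peptide was given 4 h before LPS, HI followed 14 h after LPS, and brains were removed 6 h after HI. The injured hemisphere is the left and the uninjured hemisphere the right of each brain in the labels, so injury and side cannot be told apart, and the uninjured tissue had met the same LPS, peptide and hypoxia. The other 30 arrays are 5 each of the injured and uninjured hemisphere of the same model with vehicle in place of the peptide (LPS/HI), LPS with IDR-1018, LPS, IDR-1018 alone and Vehicle. LPS alone and LPS with IDR-1018 were taken 6 h after LPS, and IDR-1018 alone and Vehicle 10 h after that treatment. Nothing in the labels ties an array to a single pup, so the p-values measure the spread between these arrays, which may in part be technical.

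LPS is a bacterial cell wall component that is sensed through CD14 and Toll-like receptor 4, and in this model it sensitises the immature brain to a later fall in blood flow and oxygen. In rodent models of this kind 1 carotid artery is closed before hypoxia, so that the hemisphere on that side is damaged while the other meets hypoxia with its blood supply largely intact. Injured brain cells and resident microglia then make chemokines, stress proteins and transcription factors of the immediate early and integrated stress responses within hours, while neurons lose transcripts. The values are log2 RMA signals, the background-corrected, quantile-normalised and probe-summarised brightness of a probe set, and each gene is its brightest probe set with a single symbol.

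Over 19937 genes, limma called 498 genes between the hemispheres at a Benjamini-Hochberg adjusted p under 0.05, which is 2.5% of those tested. Of these, 358 (1.8%) were higher and 140 (0.702%) lower in the injured hemisphere, and the median log2 fold change of all genes was -0.0003. After centring each array on its median the split was 256 higher and 225 lower. Differences were larger among the higher genes, with 104 of the 110 called genes beyond 1.5-fold higher in injured tissue, and all 26 of those beyond 2-fold. In 453 of the called genes every injured array lay on one side of every uninjured array. Over all genes 1021 (5.12%) separated in this way. The 15 highest and 12 lowest named genes were picked from these 453, so their separation was fixed by the choice. The count of calls depended on single arrays: it was 230 without uninjured replicate 1, 266 without injured replicate 5, 279 without injured replicate 1, 311 without uninjured replicate 5, 318 without uninjured replicate 3 and 323 without injured replicate 2. Of the 110 called genes named here, 62 kept their call in every one of the 10 fits without 1 array and 33 in fewer than 5 of them. For the typical gene the 95% interval reached 0.18 log2 units to either side (median over genes). At an unadjusted p under 0.05 there were 2870 genes (14.4%).

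The 10 arrays had gene-wise correlations between 0.9884 and 0.9974. On the first principal component, with 36.7% of the variance, arrays of both hemispheres mixed, and on the second, with 21.1%, the injured arrays lay between 6.27 and 15.17 and the uninjured between -15.2 and -3.83. Injured replicates 3 and 4 and uninjured replicates 3 and 4 had Y-linked signal and low Xist, and the 3 other arrays of each hemisphere had Xist with no Y-linked signal, so both classes are equally spread over the hemispheres. Injured replicates 3 and 4 also had the highest mean of 49 ribosomal protein genes, at 11.14 and 11.11, against 10.78 to 10.80 in the other injured arrays. Of the LPS/HI arrays without peptide, injured replicate 3 carried both signals, with Xist at 11.23 and a Y-linked mean of 8.01, while the uninjured array of that number carried Xist alone. Markers of cortical neurons averaged 9.76 to 9.85 in injured arrays and 9.97 to 10.07 in uninjured arrays. That is far above the level at which this array reads a gene that is absent. In the 23 arrays of the study without Y signal, 3 Y-linked genes read 3.33 to 5.63. Because each array holds a whole hemisphere, fewer cells of a type and less RNA per cell cannot be told apart.

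Some promoters of genes higher in injured tissue hold short motifs of the stress and inflammatory pathways described next, and 7 are shown as examples. They were picked after their motifs and values were seen. Each is the 250 bases before the RefSeq transcription start in assembly GRCm38.p6, 5′ to 3′ on the strand of the gene, with the motif in capitals. The first 3 hold the ATF4 composite site (TGATGCAA, searched on both strands), at which ATF4, the transcription factor of the integrated stress response, binds in mammals. They belong to Atf3 (chr1:191183334-191183583, minus strand), the glutathione-degrading enzyme gene Chac1 (chr2:119350992-119351241, plus strand) and the stress sensor gene Gadd45g (chr13:51846425-51846674, plus strand).
Atf3: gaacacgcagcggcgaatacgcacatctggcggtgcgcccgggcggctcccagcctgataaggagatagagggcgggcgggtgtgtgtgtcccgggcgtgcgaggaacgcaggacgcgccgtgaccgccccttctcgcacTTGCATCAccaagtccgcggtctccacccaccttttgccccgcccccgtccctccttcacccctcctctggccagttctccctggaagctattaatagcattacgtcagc
Chac1: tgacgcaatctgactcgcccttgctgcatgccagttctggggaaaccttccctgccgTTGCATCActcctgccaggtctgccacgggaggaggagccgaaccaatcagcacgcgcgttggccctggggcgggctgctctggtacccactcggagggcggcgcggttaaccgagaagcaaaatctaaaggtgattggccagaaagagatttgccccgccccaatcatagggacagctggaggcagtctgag
Gadd45g: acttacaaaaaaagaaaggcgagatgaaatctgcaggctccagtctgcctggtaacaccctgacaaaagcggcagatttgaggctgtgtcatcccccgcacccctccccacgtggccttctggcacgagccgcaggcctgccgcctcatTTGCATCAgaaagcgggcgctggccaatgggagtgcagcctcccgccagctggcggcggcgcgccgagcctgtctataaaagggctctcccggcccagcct
The next 3 hold the NF-kB site, where overlapping matches share capitals. They belong to the chemokine gene Cxcl10 (chr5:92348890-92349139, minus strand), the NF-kB subunit gene Nfkb2 (chr19:46304487-46304736, plus strand) and the receptor gene Tlr2 (chr3:83841609-83841858, minus strand).
Cxcl10: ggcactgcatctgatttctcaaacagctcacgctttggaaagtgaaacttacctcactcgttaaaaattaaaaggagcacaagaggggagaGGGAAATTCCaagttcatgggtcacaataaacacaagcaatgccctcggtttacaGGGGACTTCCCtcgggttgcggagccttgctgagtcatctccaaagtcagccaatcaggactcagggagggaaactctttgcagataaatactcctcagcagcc
Nfkb2: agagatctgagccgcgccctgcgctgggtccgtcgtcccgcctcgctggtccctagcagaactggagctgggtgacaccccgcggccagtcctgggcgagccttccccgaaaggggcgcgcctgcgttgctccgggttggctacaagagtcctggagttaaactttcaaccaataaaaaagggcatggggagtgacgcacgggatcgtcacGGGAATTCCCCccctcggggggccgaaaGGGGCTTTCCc
Tlr2: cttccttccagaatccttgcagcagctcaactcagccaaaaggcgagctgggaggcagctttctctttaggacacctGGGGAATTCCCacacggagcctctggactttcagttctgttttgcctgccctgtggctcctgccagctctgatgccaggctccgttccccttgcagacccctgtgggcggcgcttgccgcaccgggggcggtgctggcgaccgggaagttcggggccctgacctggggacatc
The last holds the heat shock element (GAA, TTC and GAA, each 2 bases apart, searched on both strands, here as 2 overlapping matches) and belongs to Hspe1 (chr1:55087898-55088147, plus strand), the mitochondrial co-chaperonin gene.
Hspe1: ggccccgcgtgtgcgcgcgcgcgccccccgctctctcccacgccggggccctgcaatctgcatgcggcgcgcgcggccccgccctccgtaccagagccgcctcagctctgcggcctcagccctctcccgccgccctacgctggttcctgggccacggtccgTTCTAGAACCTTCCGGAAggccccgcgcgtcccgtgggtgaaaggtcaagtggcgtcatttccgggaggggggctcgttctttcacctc

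Promoter windows were found for 286 of the 358 higher genes, 112 of the 140 lower genes and 15613 of the genes tested. An NF-kB site stood in 14.7% of the higher genes with a window, in 8.93% of the lower genes and in 9.49% of all. An AP-1 site (TGANTCA, both strands), at which Fos and Jun proteins bind, stood in 12.9%, 7.14% and 7.12% of the same sets. The ATF4 composite site stood in 3 of the 286 higher genes (1.05%) and in 0.73% of all, and the heat shock element in 1 of 286 (0.35%) and in 0.442% of all. For the cyclic AMP response element (TGACGTCA, both strands) the shares were 1.75% of higher genes, 3.57% of lower genes and 2.33% of all. For the CArG box they were 1.05%, none of 112, and 1.45%, and for TATAAA on the gene's strand 9.44%, 7.14% and 8.01%. These shares are descriptions of letters in a short window, with no test, and a gene with several windows was counted if any held the motif.

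Chemokine ligands, which draw leukocytes and microglia to a site, were higher in injured tissue in 10 of 23 measured members, and none was lower. The list's median log2 fold change was 0.20. Ccl3, a chemokine made by activated microglia, showed the largest difference of any gene tested. It read 11.01, 11.93, 10.66, 10.49 and 11.55 in the injured arrays, against 7.19, 7.47, 6.99, 6.81 and 6.76 in the uninjured arrays. All injured arrays lay more than 3 log2 units above all uninjured arrays, and the mean was 17.0-fold higher (log2 4.08 ± 0.24 SE, limma adjusted p = 1.92e-06). Ccl2, the main attractant of CCR2-bearing monocytes, read 7.78, 8.82, 7.71, 8.07 and 7.73 in the injured hemisphere and 6.42, 6.39, 6.31, 6.48 and 6.08 in the uninjured one. The groups were apart, with injured replicate 2 highest, and the log2 fold change was 1.68 ± 0.18 (adjusted p = 0.000333). Ccl9, a rodent CCR1 ligand, read 8.12, 8.77, 8.14, 7.85 and 8.16 against 6.40, 6.90, 6.37, 6.31 and 6.81 in uninjured tissue, a log2 fold change of 1.65 ± 0.16 (adjusted p = 0.000144). Ccl3, Ccl2 and Ccl9 were named among the highest genes on condition that their arrays did not overlap.

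Ccl6, another rodent CC chemokine, was higher by 1.08 ± 0.12 (adjusted p = 0.000688), and Ccl7, which shares CCR2 with Ccl2, by 0.92 ± 0.15 (adjusted p = 0.00674). The interferon-inducible T cell attractant Cxcl10 read 6.31, 7.27, 7.20, 6.80 and 6.55 in injured arrays, against 5.82, 5.81, 5.80, 5.93 and 5.57 in uninjured arrays. Its log2 fold change was 1.04 ± 0.16 (adjusted p = 0.00388), and replicate 1 stood lowest among the injured arrays while still above every uninjured one. The 13 ligands that were not called had log2 fold changes between -0.16 and 0.22. No chemokine receptor was called of 14 measured, with a median of 0.04 and a range of -0.13 to 0.22. Over all genes 2.5% were called, so a list of 14 without a call says little. The receptors with the smallest p were Cxcr4, the CXCL12 receptor, at 0.22 (adjusted p = 0.317) and the scavenging receptor Ackr3 at 0.20 (adjusted p = 0.464), and both overlapped between the hemispheres.

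**Figure D1:**
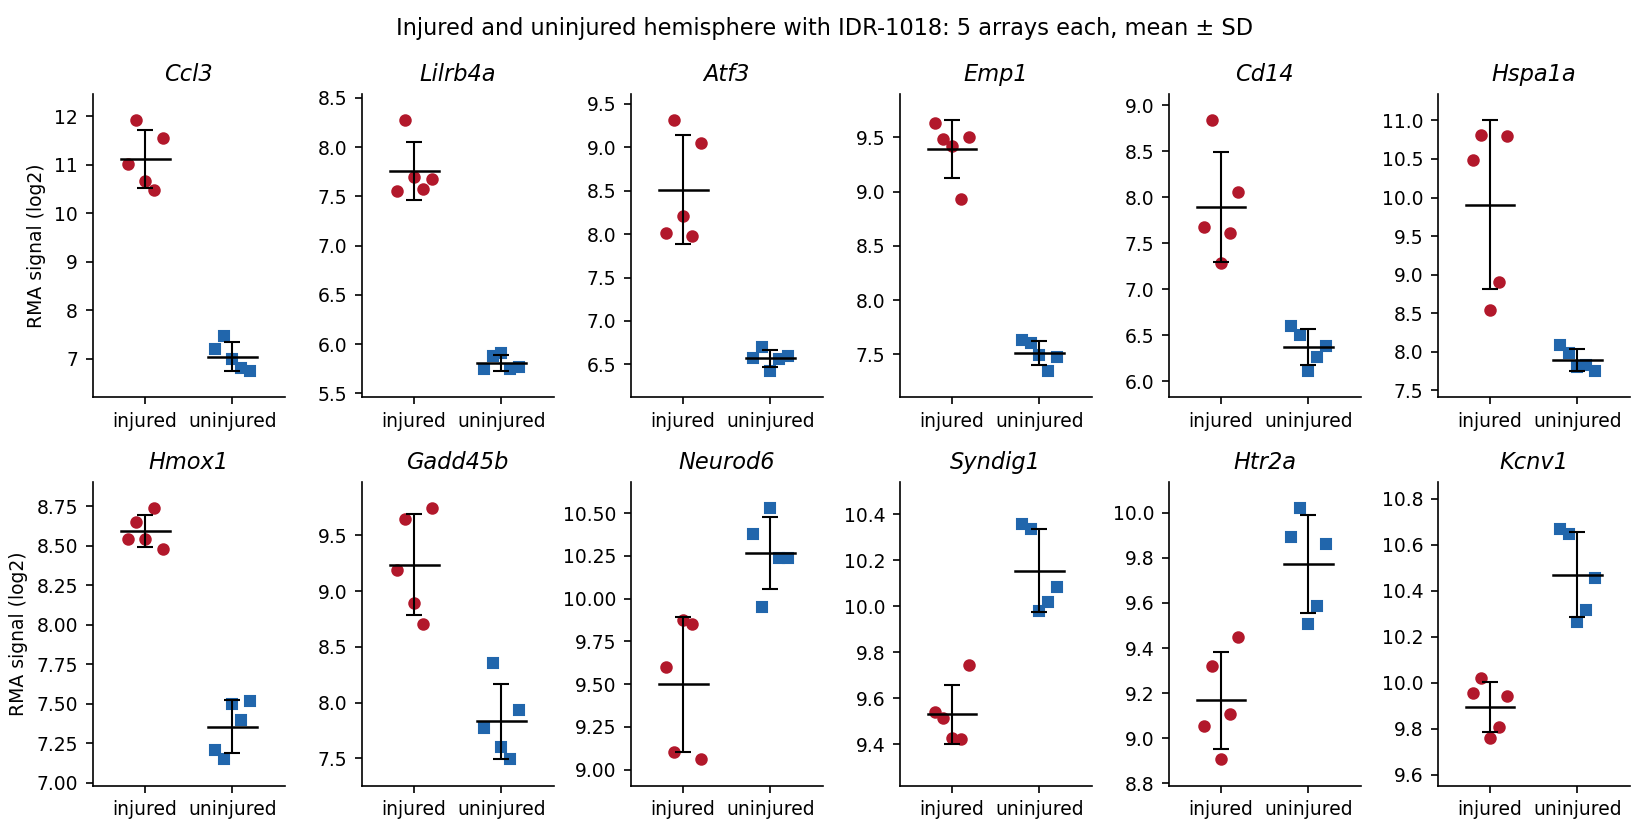
log2 RMA signal of 12 named genes on the 5 injured (red circles, left) and 5 uninjured (blue squares, right) arrays with IDR-1018, with the mean as a long bar and the SD as whiskers. The first 8 genes are higher and the last 4 lower in the injured hemisphere with no overlap, which was a condition of their choice. The injured arrays of Hspa1a split into 3 between 10.48 and 10.81 and 2 at 8.54 and 8.90.

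Among 26 measured Toll-like receptor and NF-kB genes, 7 were higher and none lower in injured tissue, with a median of 0.24. Cd14, the co-receptor that hands LPS to Toll-like receptor 4, read 7.68, 8.84, 7.28, 7.61 and 8.05 in the injured arrays and 6.60, 6.50, 6.12, 6.27 and 6.38 in the uninjured arrays. The groups were apart and the log2 fold change was 1.52 ± 0.22 (adjusted p = 0.00344). Tlr2, the receptor of bacterial lipoproteins, was 0.59 ± 0.10 higher (adjusted p = 0.00717), and Tlr1, its partner, 0.46 ± 0.10 higher (adjusted p = 0.0255). Of genes that NF-kB is known to induce, Nfkbiz, a nuclear cofactor, was higher by 0.55 (adjusted p = 0.0329), Birc3, an inhibitor of apoptosis, by 0.39 (adjusted p = 0.0438) and the subunit gene Nfkb2 by 0.35 (adjusted p = 0.0162). In the 10 fits without 1 array, Tlr1 and Nfkbiz each kept their call in 4 and Birc3 in 3. The promoters of Tlr2 and Nfkb2 are those printed with NF-kB sites.

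In the interleukin-1 system 3 of 15 measured genes were higher and none lower (median 0.12). Il1a, an alarmin cytokine, read 6.55, 8.45, 6.50, 6.77 and 7.67 in injured arrays, against 6.09, 5.93, 5.98, 5.73 and 5.51 in uninjured arrays. Replicates 2 and 5 stood far above the other injured arrays, and the log2 fold change was 1.34 ± 0.31 (adjusted p = 0.0376). That call was lost in 6 of the 10 fits that left out 1 array, and the list's count was 0 without replicate 5 of either hemisphere and 1 without replicate 1 of either hemisphere or uninjured replicate 3. The decoy receptor Il1r2 was 0.50 higher (adjusted p = 0.0227) and Casp4, the sensor of LPS inside cells (Casp11 in older mouse naming), 0.37 higher (adjusted p = 0.0255). Il1b, named after its values were seen, read 5.94, 7.24, 5.76, 6.08 and 6.34 against 5.44, 5.73, 5.46, 5.31 and 5.64, and its 0.76 did not pass the test (adjusted p = 0.0869).

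Of 20 measured TNF superfamily genes 4 were higher and none lower (median 0.11). They were Tnf itself at 0.61 ± 0.12 (adjusted p = 0.0175), its receptor Tnfrsf1a at 0.44 (adjusted p = 0.0469), the death receptor Fas at 0.62 ± 0.11 (adjusted p = 0.0114) and the TWEAK receptor Tnfrsf12a at 0.76 ± 0.11 (adjusted p = 0.00344). The call of Tnfrsf1a was kept in 2 of the 10 fits without 1 array. Tnf read 5.96, 6.60, 6.42, 6.08 and 6.01 in injured tissue and 5.40, 5.66, 5.74, 5.67 and 5.55 in uninjured tissue. Its arrays did not overlap, although the level was low. The uninjured values of 5.40 and 5.55 lie within the range of absent genes (3.33 to 5.63), so that fold change is not exact. Signalling through gp130, the receptor chain shared by interleukin-6 and oncostatin M, was represented by 19 genes, of which 6 were higher and none lower (median 0.14). The oncostatin M receptor Osmr read 9.00, 9.21, 8.79, 8.52 and 8.92 against 7.91, 7.91, 7.65, 7.84 and 7.69 in uninjured tissue, 1.09 ± 0.11 higher (adjusted p = 0.000217). Stat3, the transcription factor downstream, was 0.51 higher (adjusted p = 0.00357), Bcl3 0.52 higher (adjusted p = 0.0103), and the cytokine Clcf1 0.32 higher (adjusted p = 0.0396). The call of Clcf1 was kept in 1 of the 10 fits without 1 array.

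The feedback inhibitor Socs3 was 0.61 ± 0.11 higher on the probe set used (adjusted p = 0.00884), while its second probe set, which was dimmer, differed by 0.16. Il6 was called at 0.61 (adjusted p = 0.0497), but its arrays read 3.61, 4.21, 3.13, 3.48 and 3.69 in injured tissue and 2.88, 3.14, 3.02, 2.94 and 3.09 in uninjured tissue. Those values lie at the level of absent Y-linked genes, and the groups overlap. Interferon response genes gave a median of 0.26 with 2 of 22 measured members called, against 2.5% of all genes tested. They were Ifit3 at 1.09 ± 0.20 (adjusted p = 0.014) and the GTPase gene Irgm1 at 0.59 ± 0.10 (adjusted p = 0.00903). Acute phase and iron genes had 2 of 17 called, the pattern-recognition protein Ptx3 at 0.72 ± 0.10 (adjusted p = 0.00338) and the siderophore-binding Lcn2 at 0.81 ± 0.20 (adjusted p = 0.0467). Lcn2 read 8.20, 8.79, 9.00, 8.86 and 8.46 in injured arrays against 7.54, 7.48, 8.58, 7.79 and 7.85 in uninjured arrays, and uninjured replicate 3 lay inside the injured range. Its call was kept in 2 of the 10 fits without 1 array and in 6 of all 22 alternatives.

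Receptors of myeloid cells were among the strongest differences. Of 29 immunoreceptor and lysosomal genes 8 were higher and none lower (median 0.20). Lilrb4a, an inhibitory immunoglobulin-like receptor of myeloid cells, read 7.55, 8.28, 7.70, 7.58 and 7.68 in the injured arrays, against 5.74, 5.88, 5.91, 5.74 and 5.77 in the uninjured arrays. The uninjured arrays spanned 0.17 log2 units and the groups were far apart, with a log2 fold change of 1.95 ± 0.12 (adjusted p = 1.92e-06). Its close paralogue Lilr4b read 6.26, 7.57, 5.88, 6.04 and 6.84 against 4.85, 4.99, 5.00, 4.88 and 5.05 in uninjured tissue, 1.56 ± 0.25 higher (adjusted p = 0.00543). Its uninjured values lie in the range of absent genes, so that fold change is not exact, and probes of the pair may share signal. The same holds for the uninjured values of Casp4, Fas and Mmp12. Gpr84, a receptor of medium-chain fatty acids on activated microglia, read 7.92, 8.68, 8.05, 8.26 and 8.19 against 7.22, 6.93, 7.15, 7.13 and 6.88 in uninjured arrays, 1.16 ± 0.12 higher (adjusted p = 0.000333).

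The transmembrane glycoprotein gene Gpnmb was 1.15 ± 0.15 higher (adjusted p = 0.00171), the scavenger receptor Msr1 0.96 ± 0.10 (adjusted p = 0.000216), the galectin Lgals3 0.87 ± 0.07 (adjusted p = 2.12e-05) and the hyaluronan receptor Cd44 0.79 ± 0.07 (adjusted p = 0.000105). Lgals3 was among the tightest, with 8.20, 8.35, 8.17, 8.14 and 8.06 in injured arrays against 7.19, 7.38, 7.37, 7.29 and 7.32 in uninjured arrays. In the complement list 2 of 14 genes were called, both receptors of the anaphylatoxins, against 2.5% of all genes tested. C3ar1 read 8.92, 9.66, 8.94, 8.71 and 9.32 in injured tissue, against 8.31, 8.18, 7.97, 7.77 and 7.75 in uninjured tissue (1.11 ± 0.16, adjusted p = 0.00344), and C5ar1 was 0.88 ± 0.12 higher (adjusted p = 0.00343). The 12 other complement genes were not called.

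Markers of the cells that could carry these receptors did not pass the test in the 5 against 5 comparison. As 2.5% of all genes were called, the lack of calls in lists of 11 to 16 markers says little. Of 16 homeostatic microglia genes none was called, 13 had negative and 3 positive log2 fold changes, and the median was -0.16. The purinergic receptors P2ry13 and P2ry12, which mark resting microglia, gave -0.55 (adjusted p = 0.0844) and -0.41 (adjusted p = 0.251), with overlapping arrays. Both were called lower with Xist as a covariate, where 3 of the 16 markers passed, and in the Xist arrays alone, where 2 did. The mean level of the microglia list was 7.67 to 8.11 in injured arrays and 7.77 to 8.31 in uninjured arrays. None of 13 monocyte and macrophage markers was called (median 0.15, mean level 6.64 to 6.87 injured and 6.56 to 6.72 uninjured). None of 13 neutrophil markers was called either (median 0.12, mean level 5.40 to 5.55 injured and 5.27 to 5.45 uninjured). In the neutrophil list the collagenase Mmp8 read at most 4.54, the level of absent genes, and S100a9 had 6.01, 6.25, 6.21, 5.92 and 6.13 in injured arrays against 5.65, 5.90, 5.80, 5.99 and 5.77 in uninjured arrays (0.28, adjusted p = 0.0965). The 11 lymphocyte markers had a median of -0.05 with none called (mean level 5.27 to 5.35 injured and 5.34 to 5.51 uninjured). The mean levels of the neutrophil and lymphocyte lists lie within the range of absent genes (3.33 to 5.63). Their lack of calls therefore says little about these cells. The part of cell numbers in the differences of the myeloid genes was not tested.

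**Figure D2:**
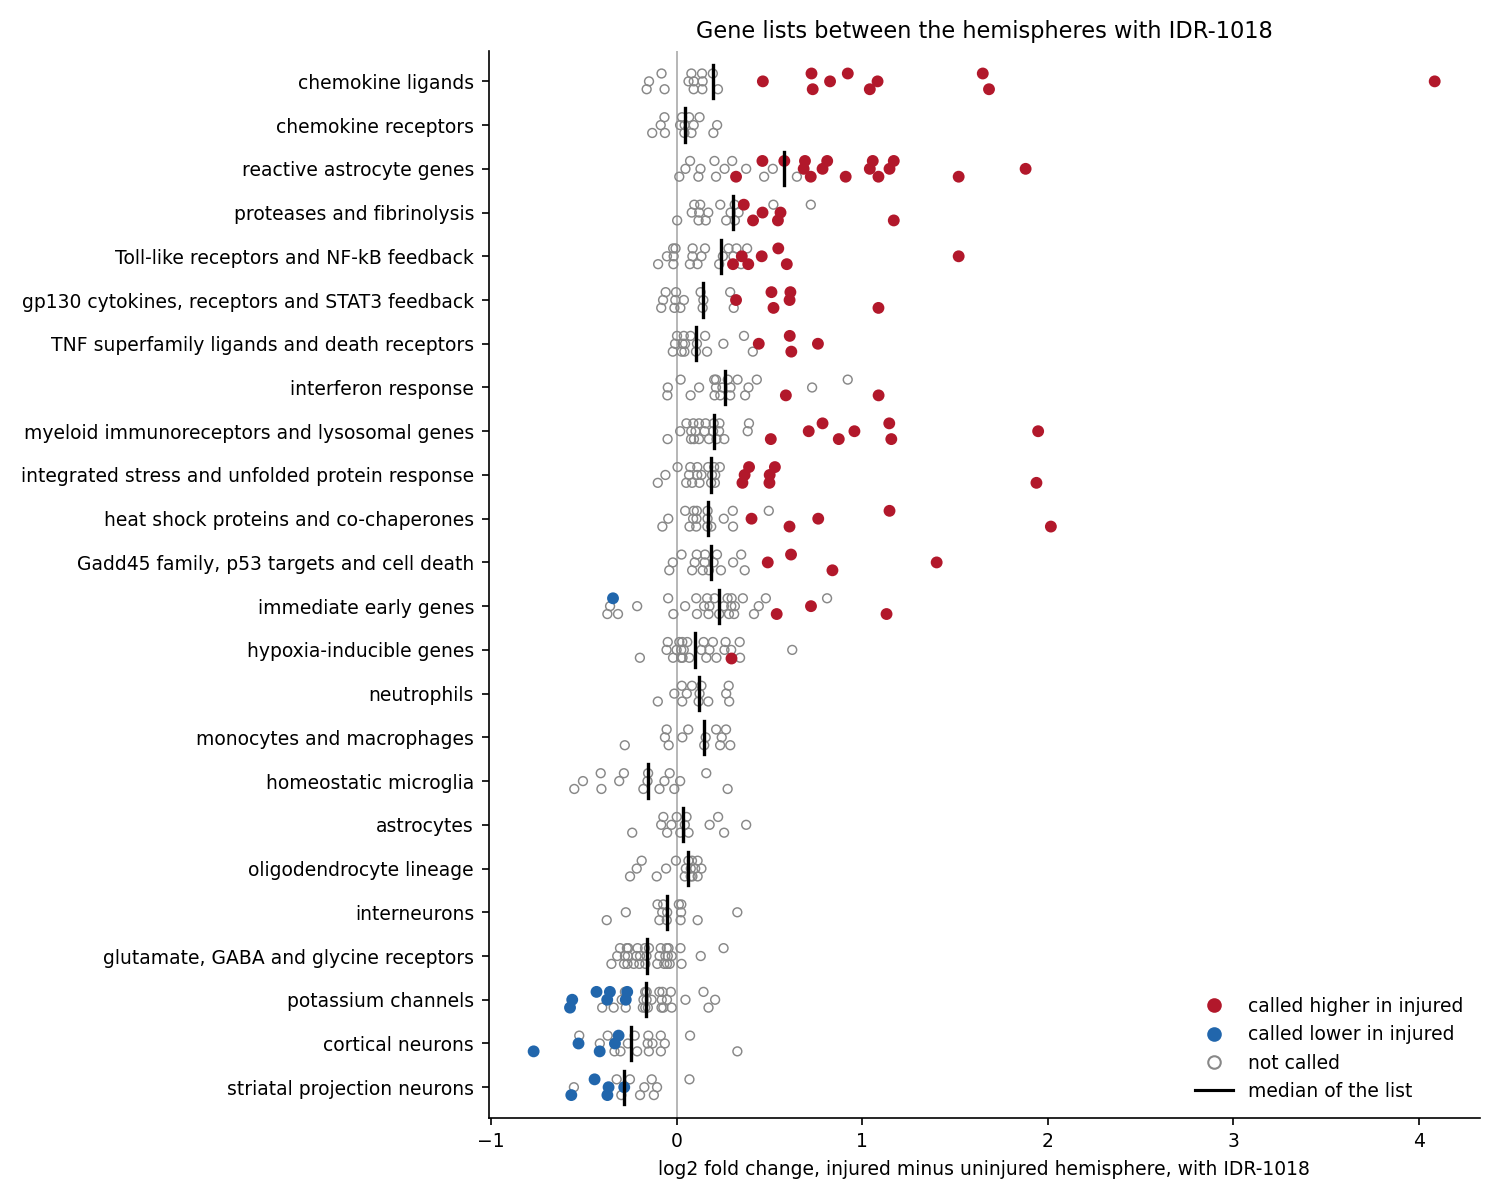
log2 fold change, injured minus uninjured hemisphere with IDR-1018, of every measured member of 24 gene lists, 1 circle a gene, filled red when called higher, blue when called lower and open when not called, with the list's median as a bar. Called genes lie right of 0 in the immune, glial and stress lists, on both sides in the immediate early genes, and left of 0 in the potassium channel and the cortical and striatal neuron lists; the neutrophil, monocyte, microglia, astrocyte, oligodendrocyte and interneuron markers hold no called gene.

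Genes of the integrated stress and unfolded protein responses were higher in 7 of 25 measured members and lower in none (median 0.19). In this response, kinases that sense stress slow protein synthesis and favour translation of ATF4. Atf3, a target and partner of ATF4, read 8.02, 9.31, 8.21, 7.97 and 9.05 in the injured arrays, against 6.58, 6.70, 6.43, 6.57 and 6.59 in the uninjured arrays. Injured replicates 2 and 5 were highest, every injured array was above every uninjured one, and the log2 fold change was 1.94 ± 0.22 (adjusted p = 0.000738). Atf4 itself was 0.50 ± 0.07 higher (adjusted p = 0.00344). Its target Ddit3, which encodes CHOP, was 0.39 ± 0.07 higher (adjusted p = 0.00925), the phosphatase subunit Ppp1r15a 0.53 ± 0.07 (adjusted p = 0.00336), Chac1 0.50 ± 0.10 (adjusted p = 0.0232) and the mTORC1 inhibitor Sesn2 0.37 ± 0.08 (adjusted p = 0.0319). The 18 members that were not called ranged from -0.10 to 0.23.

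Heat shock genes were higher in 5 of 22 members and lower in none (median 0.17). Hspa1a, the inducible HSP70, read 10.48, 10.81, 8.54, 8.90 and 10.80 in injured arrays, against 8.08, 7.99, 7.80, 7.83 and 7.75 in uninjured arrays. All injured arrays were above all uninjured arrays, yet replicates 3 and 4 were nearly 2 log2 units below the other 3, and the log2 fold change was 2.02 ± 0.39 (adjusted p = 0.0163). These are the 2 injured arrays with Y-linked signal and the highest ribosomal protein mean. Within the arrays with Y-linked signal the difference in Hspa1a was 0.90 (2 against 2) and within those with Xist 2.76 (3 against 3), and the part of sex or of the other features of these arrays was not tested. Its probes may also read the near-identical Hspa1b. The small heat shock protein Hspb1 showed no such split, at 8.70, 9.04, 8.80, 8.88 and 9.02 against 7.99, 7.52, 7.75, 7.50 and 7.95 in uninjured tissue (1.15 ± 0.11, adjusted p = 0.000123), and its second probe set differed by 1.14.

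Hspb8 was 0.76 ± 0.15 higher (adjusted p = 0.0185), by 0.97 within the Xist arrays and 0.45 within the Y arrays. Its partner in selective autophagy, the co-chaperone Bag3, was 0.61 ± 0.12 higher (adjusted p = 0.0216), with the opposite order of 0.37 within the Xist arrays and 0.97 within the Y arrays. Hspe1 was 0.40 ± 0.10 higher (adjusted p = 0.0493), a call kept in 2 of the 10 fits without 1 array. Among 20 measured Gadd45, p53 and cell death genes 4 were higher and none lower (median 0.19). Gadd45b, a stress sensor that also takes part in DNA demethylation, read 9.19, 9.64, 8.89, 8.71 and 9.74 against 7.78, 8.36, 7.61, 7.49 and 7.94 in uninjured arrays (1.40 ± 0.20, adjusted p = 0.00344). The groups did not overlap. Gadd45g was 0.84 ± 0.19 higher (adjusted p = 0.037), the p53 target Phlda3 0.62 ± 0.10 (adjusted p = 0.00454) and the pro-apoptotic BH3-only gene Bcl2l11 0.49 ± 0.08 (adjusted p = 0.0073). The call of Gadd45g was kept in 4 of the 10 fits without 1 array.

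Oxidative stress was represented by Hmox1, the haem-degrading oxygenase, with little spread between arrays. It read 8.55, 8.65, 8.54, 8.74 and 8.48 in injured arrays, against 7.21, 7.15, 7.50, 7.40 and 7.52 in uninjured arrays. The SD was 0.10 over the injured arrays, and the log2 fold change 1.24 ± 0.09 (adjusted p = 6.92e-06). Nfe2l2, which encodes the regulator NRF2, was 0.64 ± 0.12 higher (adjusted p = 0.0123), and the other 14 of 16 NRF2 genes measured were not called, within -0.07 to 0.33. Hypoxia-inducible genes showed 1 call in 26, the angiogenic factor Vegfa at 0.29 ± 0.07 (adjusted p = 0.0428), with a median of 0.10. Both hemispheres had met hypoxia, and whether this bears on the small number of calls was not tested. The metal-binding Mt2 was 0.38 higher (1 of 12 in its list, adjusted p = 0.0438), the lipase inhibitor Angptl4 0.44 higher (1 of 15 glucocorticoid response genes, adjusted p = 0.0497), the clock repressor Cry1 0.43 higher (1 of 15, adjusted p = 0.0123) and the prostaglandin E synthase Ptges 0.46 higher (1 of 17, adjusted p = 0.0216). Over all genes 2.5% were called, so a single call in lists of this size says little about the list. In the 10 fits without 1 array, Vegfa and Mt2 each kept their call in 2 and Angptl4 in 1. Ptges kept its call in 6 and Cry1 in all 10.

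Of 31 immediate early genes, which are switched on by activity or stress without new protein synthesis, 3 were higher and 1 lower (median 0.23). Fos read 7.19, 8.66, 7.67, 8.24 and 8.18 in injured tissue against 6.85, 7.39, 6.40, 6.42 and 7.22 in uninjured tissue (1.13 ± 0.26, adjusted p = 0.0353). Injured replicate 1 lay within the uninjured range. Ier3 was 0.72 ± 0.08 higher (adjusted p = 0.000806) and the small Maf factor Maff 0.54 ± 0.12 higher (adjusted p = 0.0262), both without overlap. Egr3, a factor that follows synaptic activity, fell to 8.12, 8.46, 8.32, 8.47 and 8.41 in injured tissue, against 8.75, 8.76, 8.67, 8.52 and 8.81 in uninjured tissue (-0.34 ± 0.08, adjusted p = 0.0438). The small GTPase gene Gem, outside the list, read 7.23, 8.79, 7.45, 7.52 and 8.32 against 6.30, 6.89, 6.40, 6.05 and 6.49 in uninjured arrays (1.44 ± 0.26, adjusted p = 0.0115).

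Reactive astrocyte genes had the largest share of calls of the lists described, with 16 of 29 members higher, none lower and a median of 0.58. Many of these genes also belong to endothelium, microglia or other lists. Emp1, an epithelial membrane protein, read 9.63, 9.48, 9.42, 8.93 and 9.50 in the injured arrays, against 7.63, 7.61, 7.50, 7.35 and 7.48 in the uninjured arrays. Injured replicate 4 was lowest but still far above the highest uninjured array, and the log2 fold change was 1.88 ± 0.11 (adjusted p = 1.92e-06). Timp1, an inhibitor of matrix metalloproteinases, read 7.68, 8.07, 7.99, 7.61 and 7.65 against 6.48, 6.79, 6.98, 6.35 and 6.56 in uninjured tissue (1.17 ± 0.12, adjusted p = 0.000333). B3gnt5, a glycosyltransferase, read 8.95, 8.91, 8.99, 8.56 and 8.79 against 8.01, 7.39, 8.07, 8.32 and 7.12 (1.06 ± 0.19, adjusted p = 0.0119). Here the spread was in the uninjured arrays, with an SD of 0.51 against 0.17 in injured tissue.

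General astrocyte markers differed less. None of 14 was called, which says little where 2.5% of all genes were called. The median was 0.03, and the list's mean level was 10.27 to 10.64 in injured arrays and 10.22 to 10.55 in uninjured arrays. Aldh1l1, a cytosolic folate enzyme, gave 0.26 (adjusted p = 0.051), and Gfap, the intermediate filament of astrocytes, read 10.11, 10.03, 9.94, 10.28 and 9.62 in injured arrays against 9.75, 9.58, 9.80, 9.57 and 9.41 in uninjured arrays (0.38, adjusted p = 0.104). The Gfap arrays overlapped. Proteases and fibrinolysis genes had 6 of 22 members called, all higher, and every member had a positive log2 fold change (median 0.30). The called ones include the urokinase receptor Plaur at 0.55 ± 0.12 (adjusted p = 0.0285), tissue plasminogen activator, Plat, at 0.46 ± 0.11 (adjusted p = 0.0438), thrombomodulin, Thbd, at 0.56 ± 0.13 (adjusted p = 0.0438), the macrophage elastase Mmp12 at 0.41 ± 0.08 (adjusted p = 0.0161) and Adam8 at 0.36 ± 0.06 (adjusted p = 0.00952).

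Vascular genes were higher in 3 of 20 angiopoietin, VEGF and apelin members and in 3 of 16 adhesion and barrier members, with none called lower. Of all genes tested, 1.8% were called higher. In each of these lists 1 uncalled gene was lower in every injured array than in every uninjured one. Esm1, an endothelial tip cell proteoglycan, was 0.58 ± 0.09 higher (adjusted p = 0.00344), and the Notch ligand Dll4 0.40 ± 0.07 higher (adjusted p = 0.0128). Icam1, the leukocyte adhesion molecule, read 8.01, 8.64, 8.13, 7.97 and 8.29 against 7.48, 7.54, 7.61, 7.50 and 7.46 in uninjured arrays (0.69 ± 0.11, adjusted p = 0.00527), with no overlap. Pecam1 and Cdh5, junctional proteins of endothelium, were 0.46 (adjusted p = 0.0395) and 0.36 higher (adjusted p = 0.0229), while the other 11 of 13 endothelium markers were not called (list median 0.04). Those 11 ranged from -0.50 to 0.13, and 6 of the 13 markers had log2 fold changes below 0. Pecam1 kept its call in 3 and Cdh5 in 5 of the 10 fits without 1 array. Of the growth factors, 3 of 25 were higher and 1 lower. Csf1, the survival factor of microglia, was 0.69 ± 0.11 higher (adjusted p = 0.00645), Fgf2 0.52 ± 0.12 (adjusted p = 0.0368) and Hbegf 0.45 ± 0.09 (adjusted p = 0.0211). The activin subunit gene Inhba fell by 0.32 on the log2 scale (SE 0.07, adjusted p = 0.0267).

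**Figure D3:**
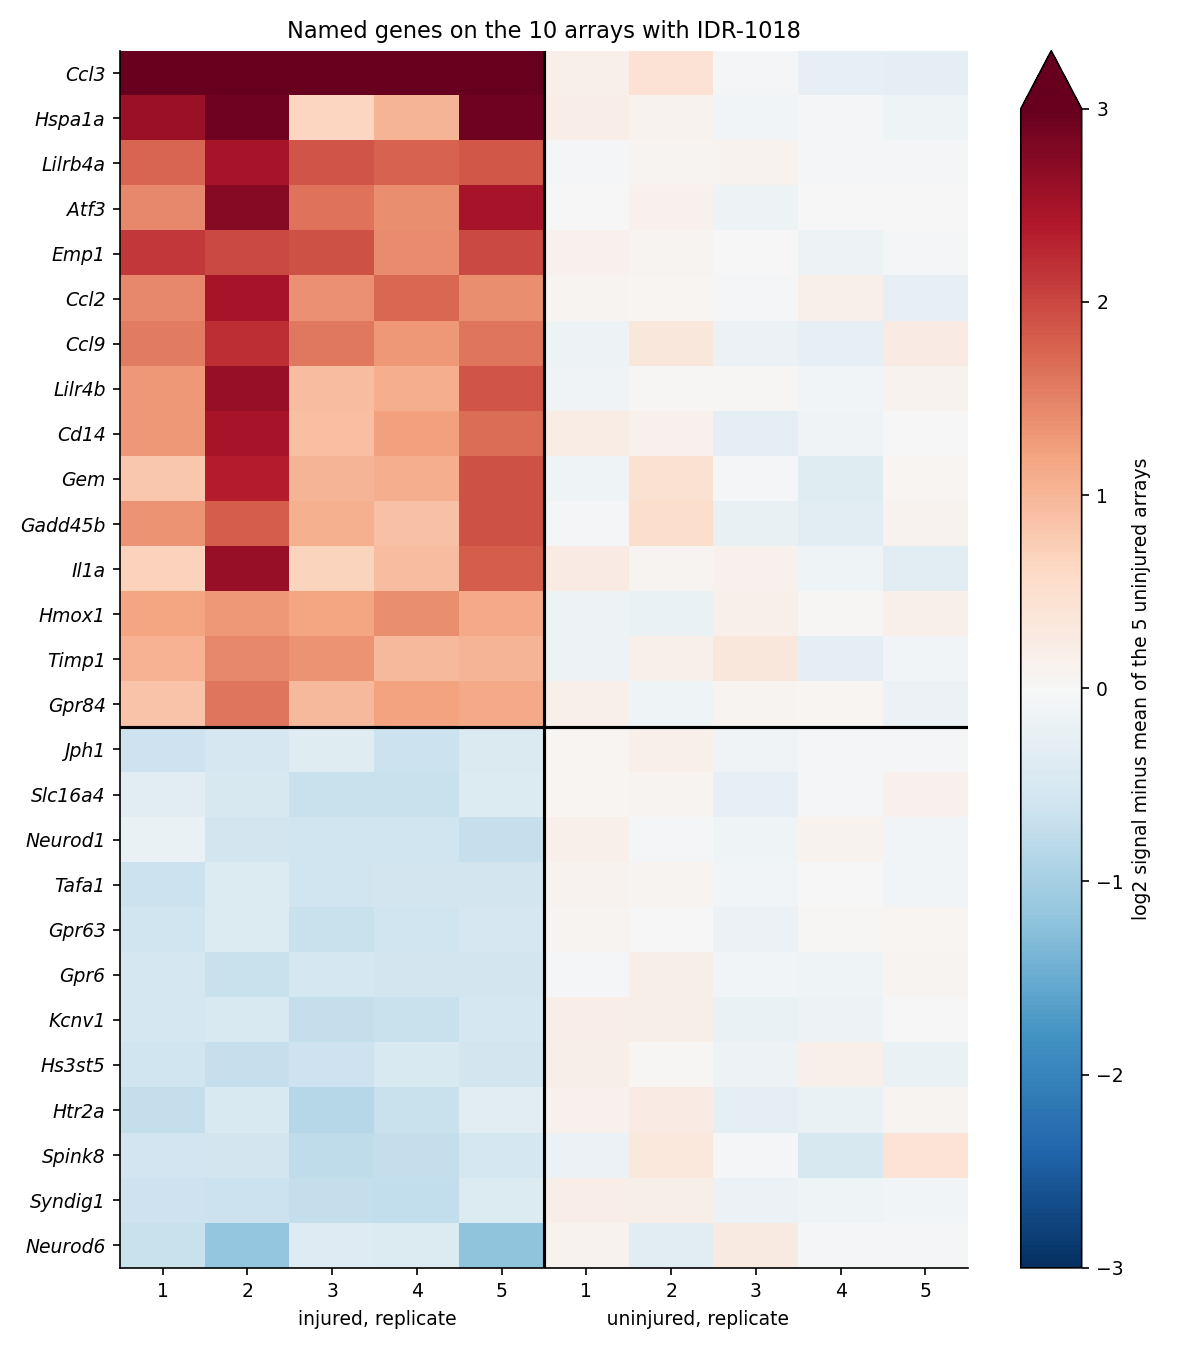
log2 signal of the 15 higher and 12 lower named genes (rows) on the 5 injured arrays (left columns) and 5 uninjured arrays (right columns) with IDR-1018, minus the gene's mean over the 5 uninjured arrays; the colour scale stops at 3, which Ccl3 exceeds. Injured replicate 2 is the highest injured array for 12 of the 15 higher genes, and the lower genes show smaller and more even differences.

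Genes lower in injured tissue included markers of cortical and striatal neurons and potassium channels, with smaller differences. Of 22 cortical neuron markers 5 were lower and none higher, with a median of -0.24. Neurod6, a transcription factor of cortical and hippocampal pyramidal neurons, read 9.60, 9.10, 9.87, 9.85 and 9.06 in the injured arrays, against 10.38, 9.95, 10.53, 10.24 and 10.24 in the uninjured arrays. The groups were apart by less than 0.1 log2 units and the log2 fold change was -0.77 ± 0.16 (adjusted p = 0.0255), a call kept in 3 of the 10 fits that left out 1 array. Neurod1 was -0.53 ± 0.09 (adjusted p = 0.0104), Fezf2, which specifies deep-layer projection neurons, -0.41 ± 0.06 (adjusted p = 0.00344), the layer 4 factor Rorb -0.33 ± 0.08 (adjusted p = 0.0438) and Mef2c -0.31 ± 0.07 (adjusted p = 0.0336). Fezf2 had SDs of 0.07 in injured and 0.05 in uninjured tissue.

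Striatal projection neuron markers were lower in 5 of 15 members and higher in none, with a median of -0.28. Gpr6, an orphan receptor of striatopallidal neurons, read 8.85, 8.72, 8.85, 8.85 and 8.84 in injured arrays, against 9.35, 9.56, 9.31, 9.25 and 9.46 in uninjured arrays (-0.57 ± 0.07, adjusted p = 0.00119). The injured arrays spanned 0.14 log2 units. Pde10a, the phosphodiesterase of medium spiny neurons, read 10.19, 10.21, 10.24, 10.30 and 10.34 against 10.80, 10.69, 10.57, 10.79 and 10.63 in uninjured tissue (-0.44 ± 0.07, adjusted p = 0.00361). The retinoic acid receptor Rarb gave -0.37 (adjusted p = 0.0177), the enkephalin precursor Penk -0.37 (adjusted p = 0.0458) and Foxp1 -0.28 (adjusted p = 0.0391). The Penk arrays overlapped between hemispheres and those of the other 4 did not. Interneuron markers had no call in 14 (median -0.05), and the 2 with the smallest p were Vip at -0.38 (adjusted p = 0.182) and Calb2 at 0.33 (adjusted p = 0.268). With 2.5% of all genes called, no call in a list of 14 says little.

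Potassium channel genes, which set the resting potential and the firing pattern of neurons, were lower in 7 of 32 members and higher in none (median -0.17). Kcnv1, a silent subunit that modifies Kv2 channels, read 9.95, 10.02, 9.76, 9.81 and 9.94 in injured arrays against 10.67, 10.65, 10.27, 10.31 and 10.45 in uninjured arrays (-0.57 ± 0.09, adjusted p = 0.00509). In both hemispheres replicates 3 and 4 were the lowest. Kcnq5, a subunit of the M current, was -0.43 ± 0.07 (adjusted p = 0.00627) and the voltage-gated Kcnh5 -0.56 ± 0.12 (adjusted p = 0.0229). The A-type subunit Kcna4 gave -0.37 (adjusted p = 0.0244), the calcium-activated Kcnn2 -0.36 (adjusted p = 0.0441) and the two-pore channel Kcnk2 -0.27 (adjusted p = 0.0491). Without 1 array the list held 2 to 5 called genes, and Kcnn2 and Kcnk2 each kept their call in 1 of the 10 fits, Kcna4 and Kcnh5 in 4. Of 33 glutamate, GABA and glycine receptor genes none was called, although 29 had negative log2 fold changes and the median was -0.16. The NMDA receptor subunit Grin2b came nearest, at 11.31, 11.34, 11.18, 11.32 and 11.36 against 11.68, 11.52, 11.47, 11.65 and 11.49 in uninjured arrays (-0.26, adjusted p = 0.0562), and its arrays did not overlap. Other fits called members of this list, 6 in the fit to all 8 groups and 7 with Xist as a covariate.

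Of 24 thyroid hormone, serotonin and neuropeptide genes 3 were lower and none higher (median -0.18). Htr2a, the serotonin 2A receptor of cortical pyramidal neurons, read 9.06, 9.32, 8.91, 9.11 and 9.45 in injured arrays, against 9.89, 10.02, 9.51, 9.59 and 9.86 in uninjured arrays (-0.61 ± 0.12, adjusted p = 0.0172). The presynaptic serotonin receptor Htr1b was -0.48 ± 0.11 (adjusted p = 0.0328). Syndig1, which acts on AMPA receptors at developing synapses, read 9.54, 9.51, 9.43, 9.42 and 9.74 against 10.36, 10.34, 9.98, 10.02 and 10.08 in uninjured tissue (-0.62 ± 0.09, adjusted p = 0.00344). Neither Htr2a nor Syndig1 overlapped between the hemispheres. The heparan sulfate sulfotransferase Hs3st5 was -0.58 ± 0.08 (adjusted p = 0.00344), the secreted neuronal protein gene Tafa1 -0.55 ± 0.07 (adjusted p = 0.00115), the orphan receptor Gpr63 -0.55 ± 0.07 (adjusted p = 0.00153) and the junctophilin Jph1, which ties surface to internal membranes, -0.51 ± 0.07 (adjusted p = 0.00344). A dimmer probe set of Jph1 differed by -0.36.

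Slc16a4, a member of the monocarboxylate transporter family, read 6.84, 6.70, 6.52, 6.51 and 6.78 in injured arrays and 7.23, 7.27, 6.94, 7.15 and 7.32 in uninjured arrays (-0.52 ± 0.09, adjusted p = 0.00884). Spink8, a protease inhibitor, had its spread in the uninjured arrays, at 5.64, 5.66, 5.45, 5.50 and 5.67 against 6.03, 6.51, 6.16, 5.72 and 6.62 (-0.62 ± 0.14, adjusted p = 0.035), and its call was kept in 1 of the 10 fits that left out 1 array. Its injured values lie around the upper end of the range of absent genes (3.33 to 5.63), so neither their narrow spread nor that fold change is exact. Within the 2 injured and 2 uninjured arrays with Y-linked signal alone, 59 genes were called in all and none of these 12 lower genes, though each kept its direction. Cholesterol synthesis (15 genes, median -0.11), cell cycle (25, median -0.03), oligodendrocyte lineage (17, median 0.06), cerebellum (11, median -0.03), pericyte (10, median -0.05) and choroid plexus genes (9, median 0.05) held no called member. At 2.5% of all genes called, lists of 9 to 25 genes without a call say little. Of 12 meninges and fibroblast markers the retinaldehyde dehydrogenase Aldh1a2 alone was called, at 0.68 ± 0.11 (adjusted p = 0.00674).

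The number of called members in several lists rested on single arrays. Over the 10 fits without 1 array, chemokine ligands kept 8 to 10 calls, reactive astrocyte genes 14 to 15, myeloid receptors 6 to 8, and complement and NRF2 genes 2 in each fit. The count reached 4 for gp130 genes (of 6 in the full comparison), 3 for Toll-like receptor and NF-kB genes (of 7), 4 for the integrated stress response (of 7), 2 for heat shock genes (of 5) and 2 for proteases (of 6). For TNF superfamily genes it reached 2 (of 4), for immediate early genes 1 (of 4), for growth factors 1 (of 4), for acute phase genes 1 (of 2) and for adhesion genes 1 (of 3). Cortical and striatal markers each reached 2 (of 5). It was 0 in at least 1 such fit for the endothelium markers, the thyroid hormone, serotonin and neuropeptide genes, and for the hypoxia, metallothionein, glucocorticoid and prostaglandin lists, which had a single call or, for the first 2, 2 and 3 calls.

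**Figure D4:**
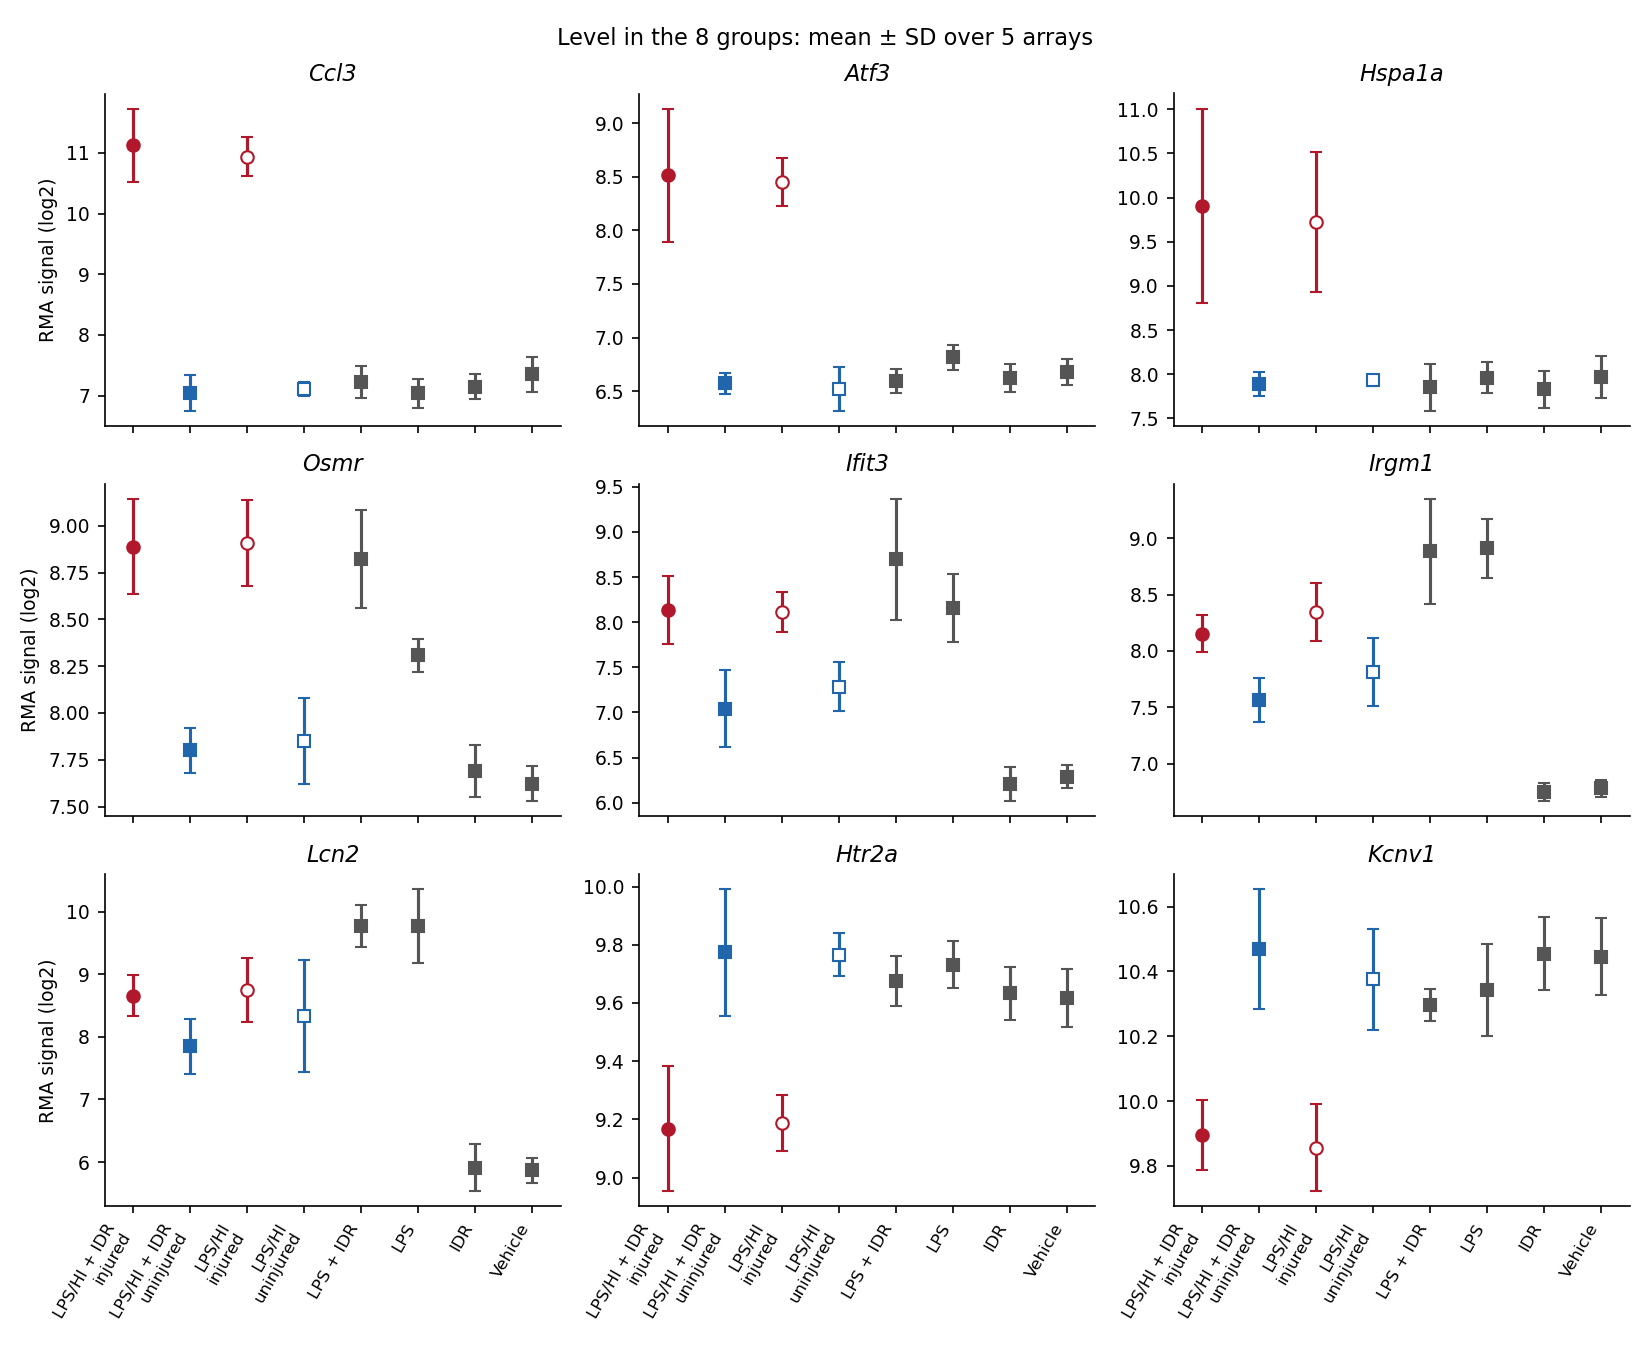
Mean log2 signal ± SD over 5 arrays of 9 genes in the 8 groups: injured (red circles) and uninjured (blue squares) hemispheres with IDR-1018 (filled) and without peptide (open), then LPS with IDR-1018, LPS, IDR-1018 alone and Vehicle (grey). Ccl3, Atf3 and Hspa1a are high in the 2 injured groups alone, whereas Osmr, Ifit3, Irgm1 and Lcn2 are also high 6 h after LPS.

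Levels across the 8 groups separate the genes by their state without HI. For all 15 of the higher named genes the means of both injured groups were above the means of the 6 other groups, and for 10 of the 12 lower genes they were below them. The order of the injured and uninjured groups with peptide was fixed by the choice of these genes. The share of all genes with such an order was not counted. Ccl3 averaged 11.13 ± 0.60 (SD) in injured and 7.04 ± 0.29 in uninjured tissue with peptide, and 10.94 ± 0.33 and 7.11 ± 0.11 without peptide. In LPS with IDR-1018, LPS, IDR-1018 alone and Vehicle it averaged 7.22 ± 0.26, 7.04 ± 0.24, 7.14 ± 0.21 and 7.35 ± 0.28, so the uninjured hemispheres were within the spread of the groups without HI. Atf3 likewise averaged 8.51 ± 0.62 and 6.57 ± 0.10 in injured and uninjured tissue with peptide, and 6.60 to 6.82 in the 4 groups without HI. Lcn2 followed another order, with 9.78 ± 0.34 in LPS with IDR-1018 and 9.77 ± 0.59 in LPS, then 8.66 ± 0.33 in injured and 7.85 ± 0.44 in uninjured tissue with peptide, and 5.91 ± 0.38 in IDR-1018 alone and 5.87 ± 0.20 in Vehicle.

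The GTPase gene Irgm1 kept the same order as Lcn2, with 8.88 and 8.91 in the 2 groups taken 6 h after LPS, 8.15 ± 0.17 in injured and 7.57 ± 0.19 in uninjured tissue with peptide, and 6.78 ± 0.08 in Vehicle. Osmr averaged 8.89 ± 0.25 in injured and 7.80 ± 0.12 in uninjured tissue, and 8.82 ± 0.26 in LPS with IDR-1018, which is within the spread of the injured group. Of the lower genes, Htr2a averaged 9.17 ± 0.22 in injured and 9.77 ± 0.22 in uninjured tissue with peptide, against 9.62 to 9.73 in the 4 groups without HI. Slc16a4 was an exception, as LPS with IDR-1018 at 6.34 ± 0.34 and LPS at 6.44 ± 0.46 lay below the injured mean of 6.67 ± 0.15. These levels come from arrays of different times and tissue pieces and are given as a description.

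Whether the injury difference itself depended on the peptide was tested as an interaction over the 20 LPS/HI arrays. No gene was called (0.0%), with 361 genes (1.81%) at an unadjusted p under 0.05 and a 95% interval that reached 0.25 log2 units to either side (median). That share is below what chance alone would give on average at this p, and the replicate number did not enter the fit. The lack of calls therefore does not show that the effects were equal. With the replicate number as a block, 634 genes had an unadjusted limma p under 0.05 and 0 were called. In the hemispheres that had no peptide, injured against uninjured arrays gave 596 called genes (2.99%), 434 (2.18%) higher and 162 (0.813%) lower. With the replicate number as a block there were 2032, a fit run because same-numbered hemispheres of that group deviated together. Without injured replicate 3, the array with both sex-linked signals, the counts were 641 genes in that comparison and 0 in the interaction. Of the genes called with the peptide, 240 of the 358 higher ones (67.0%) were also among the higher genes without it, of which they are 55.3%. For the lower genes the overlap was 73, which is 52.1% of those with and 45.1% of those without the peptide. The fit with the replicate block called 1256 higher and 776 lower genes without peptide. Among these were 316 of the 358 (88.3%, and 25.2% of the 1256) and 117 of the 140 (83.6%, and 15.1% of the 776). These lists are longer than those without the block, which can raise the shares. With the block in both comparisons, 481 of 593 higher (81.1%) and 227 of 301 lower genes (75.4%) with the peptide were shared. Without the block no gene was called in opposite directions, and 356 of the 358 higher and all 140 lower genes had the same sign without peptide. The median log2 fold change of the 358 was 0.44 with and 0.41 without peptide, and that of the 140 was -0.37 with and -0.32 without. These genes were chosen on the arrays with peptide, so the medians are a description. The arrays of the 2 comparisons are separate.

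**Figure D5:**
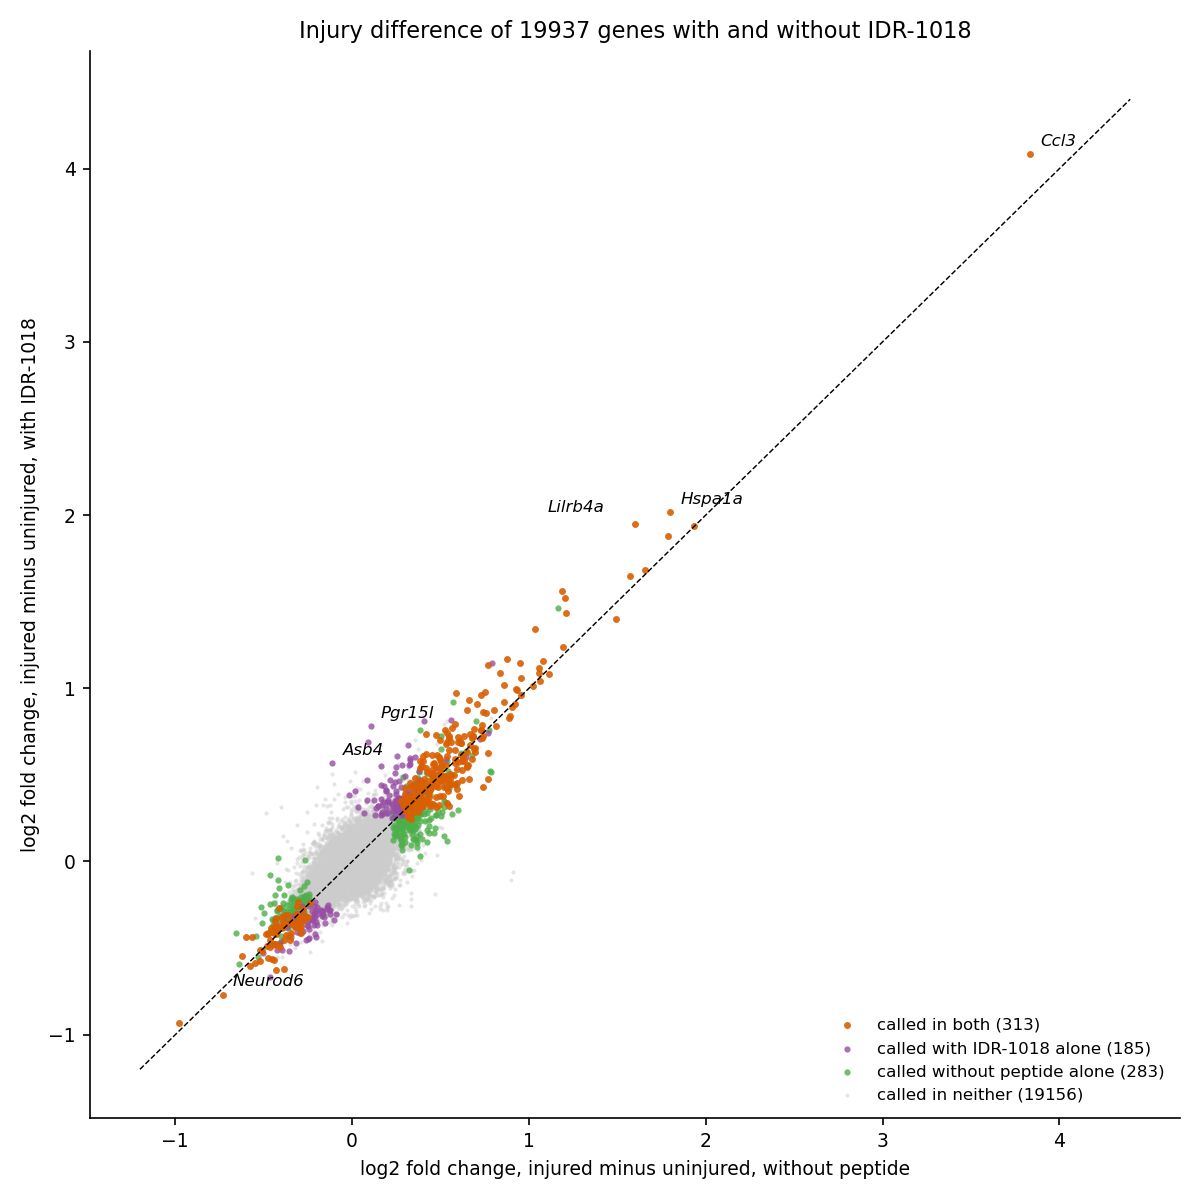
log2 fold change of injured against uninjured tissue with IDR-1018 (vertical axis) and without peptide (horizontal axis) for 19937 genes, coloured by where limma called them; the dashed line marks equal values. The 313 genes called in both comparisons lie near the line, from Neurod6 and other lower genes up to Ccl3.

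For the 15 higher named genes the log2 fold change was 1.16 to 4.08 with and 0.87 to 3.83 without peptide, the difference between them -0.09 to 0.38, and all 15 intervals of the difference included 0. For Ccl3 the difference was 0.25 with an interval of -0.36 to 0.87, for Atf3 0.01 with -0.57 to 0.58, and for Hmox1 0.04 with -0.29 to 0.38. The interval of Hspa1a was the widest of these, from -0.88 to 1.32. For the 12 lower genes the differences ran from -0.24 to 0.08 and all 12 intervals included 0. These intervals are not adjusted for the number of genes, so they are not bounds of what the test could detect with 5 arrays a group. Differences whose interval left out 0 also went uncalled. Of the 135 named genes of the hemisphere comparison, 4 had an interval that left out 0 before adjustment. They were Pde10a (-0.44 with and -0.24 without peptide), the calcium-binding protein gene Calb2 (0.33 and -0.16), and the zinc finger genes Zic2 (0.17 and -0.12) and Zic1 (0.18 and -0.14), each with an adjusted p of 1.

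The 3 genes with the smallest interaction p did not pass the test either. Pgr15l, a G protein-coupled receptor gene, read 7.03, 7.10, 6.68, 6.63 and 7.28 in injured and 6.25, 6.40, 5.96, 6.31 and 5.88 in uninjured tissue with the peptide (0.78 ± 0.13, adjusted p = 0.00903), and differed by 0.10 between the hemispheres without it. The difference was 0.68 with an interval of 0.31 to 1.05. Asb4, an adaptor of ubiquitin ligases, read 7.36, 7.69, 7.64, 7.35 and 7.75 against a range of 6.52 to 7.36 in uninjured tissue with peptide (0.57, adjusted p = 0.0396) and gave -0.11 without it, a difference of 0.68 with an interval of 0.36 to 1.00. The odorant receptor gene Olfr1090 gave -0.24 and 0.19, at signals between 3.49 and 3.91 with the peptide, the level of absent genes.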

How the data were processed

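Total RNA of mouse brain hemispheres was biotin-labelled and hybridised to Affymetrix arrays, per the labels' protocols. The deposited values are log2 RMA signals, 1 per probe set and array, made with RMA and the affy package per the submitters' processing notes, with no version given. Because RMA equalises the distributions, a change common to a whole array is not visible. There were 34760 probe sets, of which 21640 carried 1 gene symbol in the platform annotation, 1321 several and 11799 none; the brightest over all 40 arrays was kept for the 954 genes with several, giving 19937 genes with no filter on signal. Values ran from 1.84 to 14.04 and array medians from 6.99 to 7.13.

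Comparisons used limma 3.58.1 under R 4.3.3 (linear models with empirical Bayes variances) on the arrays of the groups compared, and Benjamini-Hochberg adjustment over all genes. The ± beside a log2 fold change is its SE and beside a mean the SD (n = 5), and intervals are 95%. The number of arrays limits the precision. The fits were tested on simulated data. Plots were drawn in Python 3.11.15 with pandas 2.3.3, numpy 2.4.6 and matplotlib 3.10.9. Promoters came from RefSeq, GRCm38.p6.

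The comparison, its 44 gene lists (30 of pathways, 14 of cell type markers) and the rules were chosen with earlier results of these data known. Named genes are the 15 highest and 12 lowest called genes whose groups do not overlap, up to 6 called members a list (or 2 by p where none was called), and 3 genes of the interaction; unnamed clones and sex-linked transcripts were skipped. Alternatives were the replicate number as a block, other sets of arrays, a filter on low signal, the mean over probe sets, 2 normalisations, trend and robust eBayes, array weights, Xist as a covariate and leaving out each array. Fits within the arrays of 1 sex-linked class, and the overlap of the calls with the block, were added after seeing the data. In the 2 LPS/HI groups without peptide, deviations of same-numbered arrays from their group means correlated at 0.501, 0.431, 0.392, 0.465 and 0.646, so the number was taken to pair them. The sex-linked signals of number 3 differ between those hemispheres.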

Additional observations from a re-analysis of the deposited data

Results flagged for a closer look

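In 13 of 276 groups of 5 arrays (138 named genes in 2 hemispheres), 1 array stood apart from the other 4 by more than Dixon's 95% bound. Chance flags about 5% of groups, so this number alone is not a pattern. Of the 13 arrays, 5 were injured replicate 2, which read 8.28 for Lilrb4a, 7.92 for Ccl7 and 7.58 for Birc3, each the highest, and 8.72 for Gpr6 and 9.60 for Zic2, each the lowest. Injured replicate 1 was highest for Neurod1 at 8.62 and for Ccnd2 at 10.59, and injured replicate 3 lowest for Esm1 at 6.11 and for Grin2b at 11.18. Among the uninjured arrays, replicate 2 was highest for Birc3 at 7.06, replicate 3 lowest for Gpr63 at 8.38, replicate 1 lowest for Angptl4 at 7.54 and replicate 5 lowest for Msr1 at 6.03.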

How the results depend on the processing

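With IDR-1018, 498 genes were called. The count was 894 with the replicate block, 1432 in a fit to all 8 groups, 837 in a fit to the 4 LPS/HI groups, 854 with array weights, 1083 with Xist as a covariate and 59 in the arrays with Y-linked signal alone (2 against 2). It was 522 in the Xist arrays alone, 359 of 10049 genes after the filter on low signal, and between 457 and 509 under the other settings. Leaving out 1 array gave 230 to 515. The number in the titles was not taken as a pair here: deviations of same-numbered arrays correlated at 0.47, 0.416, 0.589, 0.094 and 0.088, and arrays 4 and 5 did not correlate best with their own number. The sex-linked class, by contrast, was the same in both hemispheres for every number with IDR-1018. Without peptide, 596 genes were called, 2032 with the replicate block, 1431 in the fit to all 8 groups, 1447 with array weights and 166 in the Xist arrays alone, and 285 to 641 when 1 array was left out; the Y-linked arrays alone could not be fitted there. The interaction called 0 genes under every alternative run. The 110 called genes named here kept their direction in every alternative that tested them. With the replicate block 4 of 16 microglia markers were called (P2ry13 adjusted p = 0.00265, P2ry12 adjusted p = 0.0197 by limma) and 5 of 33 glutamate, GABA and glycine receptor genes (Grin2b adjusted p = 0.0468), and with the block in both comparisons 481 higher and 227 lower genes were shared. Of the 15 higher named genes 14 were called in each fit without 1 array; Il1a also lost its call after repeated quantile normalisation and with trend and robust eBayes. Of the 12 lower ones, Neurod6 and Spink8 lost their calls in most of those fits, and of all 110 called named genes 62 kept theirs throughout, with 65 to 95 called in any 1 such fit and 30 in the arrays with Y-linked signal alone. The cause of these changes was not tested beyond the fewer arrays or genes in the fit. Signals near the level of absent genes (3.33 to 5.63), such as Il6, Mmp8 and some uninjured values of Tnf, Il1a, Il1b and Cxcl10, limit any fold change.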
